A study of Homo sapiens with 40 samples.

Results

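CTCF peaks inside shared enhancers are the places where CTCF was bound within chromatin that was listed as an enhancer both in non-senescent and in senescent EndoC-βH3 cells. A CTCF peak was counted as a member when it lay more than 2 kb from every protein-coding start site of GENCODE 44 and overlapped, by at least 1 bp, a region of the non-senescent and a region of the senescent enhancer list. Of 51457 CTCF peaks in the series, 2866 (5.57%) met this rule. Another 640 distal peaks overlapped a senescent enhancer only, 851 a non-senescent enhancer only, 3610 an H3K27ac peak that neither list holds, and 32429 lay outside all of these. The remaining 11061 lay within 2 kb of a start site.

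EndoC-βH3 is a human pancreatic beta-cell line, of wild-type genotype per the labels, immortalised by hTERT and SV40 large T antigen that can be cut out by a tamoxifen-activated Cre recombinase. Senescent cells had received 4-hydroxytamoxifen for 3 weeks, and non-senescent cells, which carry the same transgenes, had not. Exposure to the drug, loss of the immortalising genes and senescence therefore cannot be told apart, and every library came from this single line. CTCF and H3K27ac, the acetylation mark of active promoters and enhancers, were each profiled by ChIP-seq in 3 libraries per state, and H3K4me1, an enhancer mark, and the retinoblastoma protein Rb in 2 per state, each with its own input, 40 libraries in all. The tables give 1 mean normalised read count per peak over both states (the authors' mean, referred to as the mean count) and no value per library, so the spread between replicates could not be seen. The authors' own comparison of the states was not used, and CTCF counts are not compared between states here. States are compared only through the enhancer lists, which hold positions, 1 list per state. Peaks are not replicates of a condition. Shares are given with 95% Wilson intervals and medians of peaks with quartiles, which describe the peaks, and differences between classes of peaks were not tested.

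CTCF is a zinc-finger protein that reads a long, directional DNA motif. Together with the cohesin ring it anchors chromatin loops, and it can both insulate enhancers from genes and bring them together. Enhancers are stretches of regulatory DNA away from start sites where cell-type-specific transcription factors gather, and in beta cells the enhancers near the insulin secretion genes are bound by factors such as PDX1, NKX2-2 and NEUROD1.

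The chromatin was that of beta cells. All 12 beta-cell marker genes had an H3K27ac peak at a start site, with a mean H3K27ac count per kb from 160 (ABCC8) to 537 (PAX6) beside a median of 188 over the 12508 genes with such a peak. INS was at 230 and PDX1 at 493. None of the 3 immune, 3 endothelial and 2 fibroblast markers had one. Among the alpha-cell markers IRX2 had one and GCG did not. KRT19, CPA1 and HHEX were the 1 marker each with a peak in the duct, acinar and delta-cell lists.

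The letters CTCF reads were visible in the members. The search used a 12-letter core of the motif, CCNNNAGGNGGC on either strand, with N for any base. A matrix that was learned from the 5000 CTCF peaks with the highest mean counts gave the consensus first below, and the 1163 members that matched this matrix gave the second. Capitals mark the core, and a base is written where it was the one in at least 40% of the sites.
Highest 5000 CTCF peaks: nnnnggCCACCAGGGGGCgcnnnn
Matching members: nnnnngCCAGCAGGGGGCacnnnn
The match itself requires most of these letters. In the matching members the second core position was C in 95.3% of the sites, the seventh was G in 97.5% and the tenth was G in 95.2%. The fourth position, where the core search allows any base but the matrix favours G and C, was split between G (48.5%) and C (47.3%). In the highest 5000 peaks it was G in 40.2% and C in 47.8%.

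Single sites show what these letters look like in members, some of which reach past the edges of their enhancers. The 6 sites that come first are the best core matches of members among the 10 with the highest mean counts, and the next 8 belong to members nearest to genes of beta-cell identity, insulin secretion, senescence, interferon response and cohesin loading. Each is 30 bases of hg38, 5′ to 3′ on the strand named, with the 12 core bases in capitals.
DIS3L2 intron (chr2:232327267-232327296, minus strand): gcagtgtggCCAGCAGGAGGCagcatgacc
H2BC18 intron (chr1:149793046-149793075, minus strand): cacagacggCCGCCAGGTGGCgccgcgccg
Chromosome 21 short arm (chr21:6374080-6374109, minus strand): gtacaatagCCACTAGGTGGCgatcgagta
PER2 intron (chr2:238256795-238256824, minus strand): caccatagcCCGATAGGGGGCgtttcagga
FCMR intron (chr1:206912674-206912703, minus strand): tacatattaCCACCAGGTGGCaccacaagc
ADAMTSL4 (chr1:150560081-150560110, minus strand): gggcctgtaCCACCAGGGGGCaatgtggag
ONECUT2 (chr18:57446524-57446553, minus strand): agaagactcCCGGCAGGTGGCactctagtt
SYT13 (chr11:45267153-45267182, plus strand): agtcttggcCCGCTAGGGGGCggtagaggg
FOXA2 (chr20:22453447-22453476, plus strand): ccttgttaaCCGCTAGAGGGCggatccatt
NKX2-2 (chr20:21529053-21529082, plus strand): tctttctggACAGGAGGGGGCacaatttaa
PTPRN2 (chr7:158395196-158395225, plus strand): cgagcacggCCGCTAGATGGCacgcaggcg
CDKN2B (chr9:22119755-22119784, minus strand): aacaactagCCTATAGATGGCgacagcttt
IRF1 (chr5:132501351-132501380, minus strand): ccatattagCCAGCAGGGGGTgctgttgcc
MAU2 (chr19:19342894-19342923, minus strand): ccaggccgtCCGCCAGGGGTCgctgtggcc
The first 8 match the core exactly, and the other 6 differ from it at 1 position. The sites at DIS3L2, chromosome 21, FCMR and ADAMTSL4 lie in parts of their peaks outside the enhancers of both states. The FOXA2 site lies inside the non-senescent enhancer of its peak but outside the senescent one. A match is a stretch of matching letters, and whether CTCF binds at these bases was not measured.

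Shared-enhancer CTCF peaks had the lowest median count and width of the classes compared, close to those of peaks in senescent-only enhancers. Their median mean count was 38.0 (quartiles 17.0 and 128), and single members ran from 3.09 to 1702. Median mean counts were 42.9 for peaks in senescent-only and 48.6 for those in non-senescent-only enhancers, 60.1 for peaks outside H3K27ac peaks and 84.3 for peaks in H3K27ac peaks that neither list holds. Of the members, 30.6% had a mean count under 20 and 17.8% one of at least 200, beside 24.8% and 21.4% of all CTCF peaks. The members together held 4.86% of the summed mean count of 6136424 over all CTCF peaks.

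**Figure D1:**
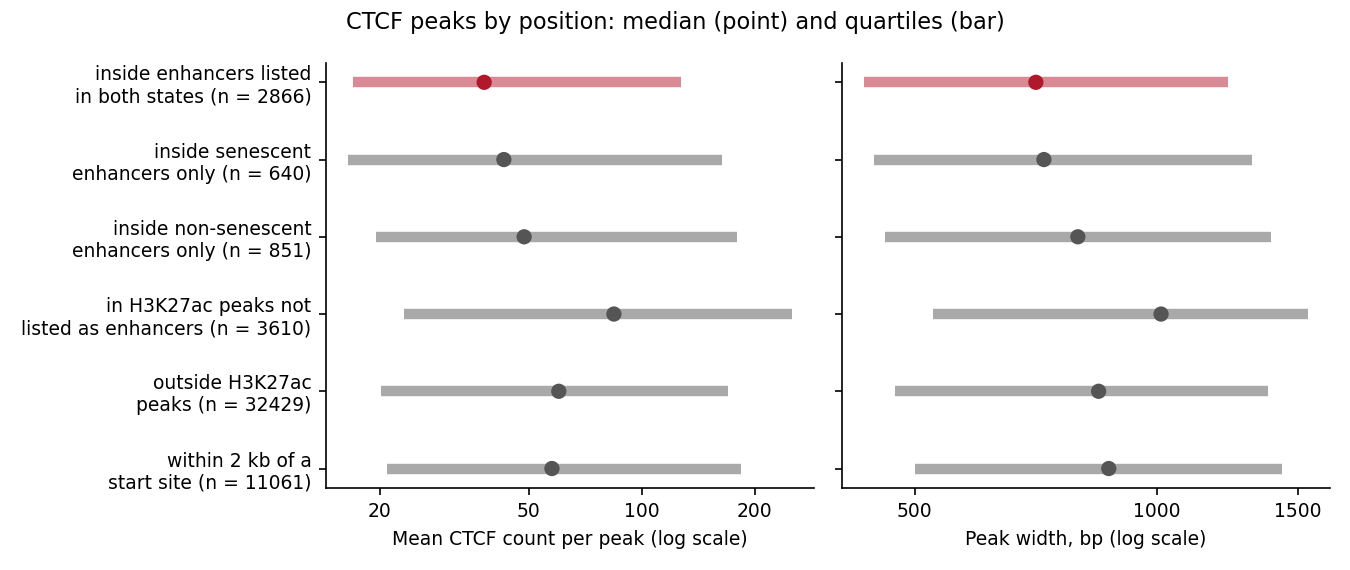
Mean CTCF count per peak (left) and peak width in bp (right), both on log axes, for 6 classes of CTCF peaks; points are medians over peaks, bars run from the lower to the upper quartile, and there is no spread between libraries. Peaks inside enhancers listed in both states (red) have the lowest median on both axes, 38.0 and 708 bp.

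Width and count went together. The members had a median width of 708 bp, beside 849 bp over all CTCF peaks, and across the members the mean count rose with the width (Spearman's rho 0.95, n = 2866 peaks that share the same libraries). Per kb of peak, the median was 57.0 for the members, 61.5 and 66.8 in senescent-only and non-senescent-only enhancers, and 70.7 outside H3K27ac peaks. Among peaks from 600 to 1200 bp wide, the medians came to 53.5 for 919 members, 53.8 for 192 peaks in senescent-only and 60.1 for 258 in non-senescent-only enhancers, 56.1 for 3621 peaks near start sites and 61.0 for 10075 peaks outside H3K27ac peaks, so that at like width the members were level with the senescent-only class.

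The share of members with the core was close to that in state-specific enhancers. Under the learned matrix the share was below that of peaks outside H3K27ac peaks by a gap that narrowed among strong peaks. A core with at most 1 mismatch lay somewhere in 1981 members (69.1%, 67.4 to 70.8%), beside 69.2% in senescent-only and 71.2% in non-senescent-only enhancers, 70.6% of the peaks outside H3K27ac peaks and 84.8% of those within 2 kb of a start site. An exact core lay in 468 (16.3%, 15.0 to 17.7%), of which 409 held 1 and 59 held 2 or more, beside 17.3% and 16.0% in the state-specific enhancers and 19.3% of the peaks outside H3K27ac peaks. The learned matrix was read in the central 300 bp. Its threshold was set on the middles of 7701 shared enhancers without a CTCF peak, so that 5.01% of them reached it. These middles had a median GC content of 44%, beside 51.0% in the members, and the part of GC content in the matches was not tested. The matrix was matched by 1163 members (40.6%, 38.8 to 42.4%). It was matched by 46.4% and 45.6% of the peaks in senescent-only and non-senescent-only enhancers and by 55.4% of the peaks outside H3K27ac peaks. In the lowest eighth of mean counts (up to 12.1) it was matched by 22.6% of 407 members (18.8 to 26.9%), beside the 5.01% at which the threshold had been set. In the highest eighth (274 and above) it was matched by 58.7% of 349 members (53.5 to 63.8%), close to the 60.7% of 3326 peaks outside H3K27ac peaks. Between mean counts of 12.1 and 20.2, the shares were 28% of 475 members and 47.9% of 3975 peaks outside. The matrix came from the CTCF peaks with the highest mean counts, and the part of that choice in the rise with mean count was not tested.

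**Figure D2:**
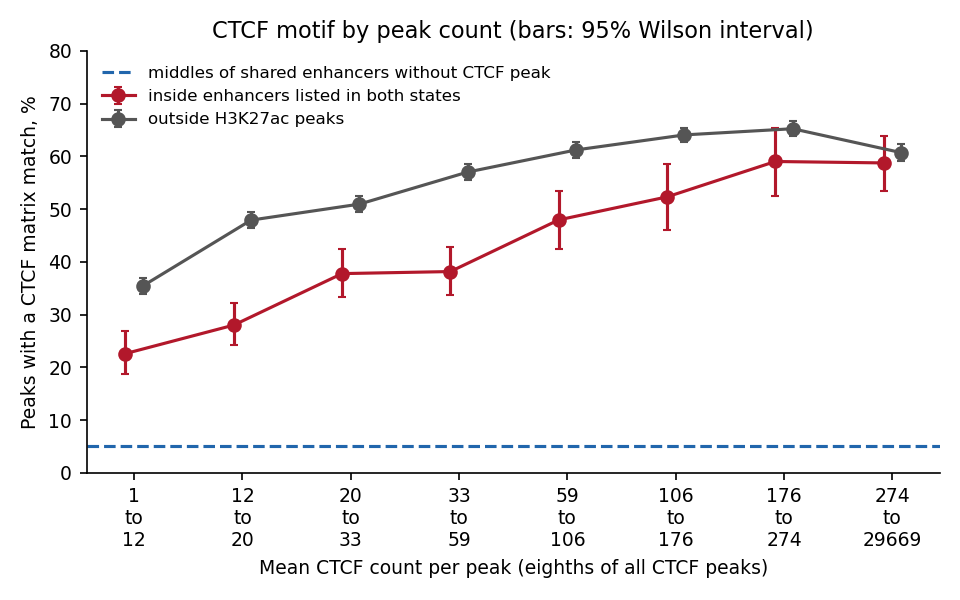
Share of CTCF peaks that match the learned CTCF matrix in their central 300 bp, in %, by eighths of all CTCF peaks ranked by mean count; red, peaks inside enhancers listed in both states; grey, peaks outside H3K27ac peaks; bars, 95% Wilson intervals over peaks; dashed line, the 5.01% of shared-enhancer middles without a CTCF peak. The red share climbs from 22.6% to 58.7% and meets the grey one in the highest eighth.

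Members with a matrix match had higher CTCF counts than those without, and their acetylation was much alike. The matrix was learned from the peaks with the highest CTCF counts, which favours higher counts among matching members, while H3K27ac had no part in it. The part of that choice in the difference was not tested. The 1163 with a match had a median mean count of 67.3 (quartiles 24.1 and 204), and the 1703 without had 28.2 (14.6 and 81.9). The H3K27ac peak over them had a median mean count per kb of 143 with a match and 148 without, in enhancers of 3182 and 3468 bp in the non-senescent list. Across all members, the mean CTCF count showed next to no relation with the mean H3K27ac count (Spearman's rho -0.06, n = 2866) and none with GC content (rho -0.03).

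The 10 members with the highest mean counts came from few chromosomes. The highest, 1702, was a 5604-bp peak in an intron of DIS3L2 (chr2:232323296-232328899), an RNA exonuclease gene, 5044 bp from its nearest start site. It was also the widest of all members and held 3 exact cores. The second, 1426, lay at EFNA3 (chr1:155083968-155087955), an ephrin ligand, and covered coding and untranslated exons of that gene. It held no exact core. The third, 1407, lay in an intron of H2BC18 (chr1:149791866-149794150) and had the highest count per kb of the members, 616. The fourth, 1335, lay in the short arm of chromosome 21 (chr21:6372935-6375796), 4145757 bp from its nearest protein-coding start site, and overlapped an H3K27ac peak with a mean H3K27ac count of 12321. It reached into the enhancers of both states by its edge only, since the senescent one ends at position 6372968 and the non-senescent one at 6373118. The fifth, 1125, covered a coding exon of the circadian gene PER2 (chr2:238255603-238257836) and was the only one of the 10 that lay whole inside an enhancer in both states.

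The other 5 were at FCMR (1099), an immunoglobulin M receptor gene, near PSMD1 (1029), which codes for a proteasome subunit, at ADAMTSL4 (1021), near ETNK2 (950), and in an intron of CHIT1 whose nearest start site is that of BTG2 (934), a growth-restraining p53 target. Of the 10, 9 lay on chromosome 1 beyond 140 Mb or on chromosome 2 beyond 220 Mb. Counts of CTCF peaks outside H3K27ac peaks were high in most of the same stretches. Their 90th percentile was from 334 to 601 in the 20-Mb stretches of chromosome 1 from 140 to 220 Mb, but 168 from 220 to 240 Mb, and 465 for chromosome 2 from 220 to 240 Mb, beside a median of 267 over 151 such 20-Mb stretches, and chromosome 20 was also high (405 to 467). Together these 3 parts of the genome held 9.53% of the members but 33 of the 100 with the highest mean counts. The median mean count was 47.9 there and 37.1 for the other members. The part of these stretches in the ranking was not tested.

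The GC content of the members was highest among the distal classes and below that of peaks near start sites. Its median was 49.6% (quartiles 43.9 and 55.8), beside 46.3% and 47.9% in senescent-only and non-senescent-only enhancers, 48.1% in H3K27ac peaks outside the lists, 43.2% for peaks outside all H3K27ac peaks and 59.2% for peaks within 2 kb of a start site. CpG pairs came to a median of 1.54 per 100 bp, beside 1.21 and 1.44 in the state-specific enhancers, 0.955 outside H3K27ac peaks and 5.46 near start sites. A start site of another gene type, such as a long non-coding RNA, lay within 2 kb of 567 members (19.8%).

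Short motifs of other factors were read in the central 300 bp of the members, on both strands. The GC box GGGCGG, bound by SP and KLF factors, was in 457 (15.9%, 14.7 to 17.3%), beside 8.21% of CTCF peaks outside H3K27ac peaks, 17.5% of all CTCF peaks and 6.99% of shared-enhancer middles without CTCF. It was in 22.6% of members with a matrix match and 11.4% of those without, and the CTCF motif itself holds GGGC. The E-box CAGATGG, read by NEUROD1, the factor that switches on endocrine genes, was in 364 members (12.7%, 11.5 to 14.0%), beside 8.53% of all CTCF peaks and 11.1% of the enhancer middles without CTCF. The forkhead motif TGTTTAC, read by FOXA pioneer factors, was in 6.39%, beside 4.21% of all CTCF peaks and 8.14% of the enhancer middles. TGANTCA, the AP-1 motif, was in 8.93% of members and 11.1% of the enhancer middles, and the homeodomain letters TAATTA were in 8.27% and 11%. Median GC content in these windows was 51.0% in members and 44% in enhancer middles, and its part in these shares was not tested.

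Most members lay fully within enhancer chromatin in both states. Of the 2866, 2011 (70.2%, 68.5 to 71.8%) were whole inside a listed enhancer in both states, 189 in senescent cells only and 176 in non-senescent cells only, and 490 crossed an edge in both. The middle of the peak was inside in both states for 2591 (90.4%), in senescent cells only for 86 and in non-senescent cells only for 83. In the few places where one state lost the middle of the peak, the losses were thus about as many in each direction.

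Weak members gathered in the middle of their enhancers and strong ones did not. Each enhancer was divided along its length into 5 equal segments. Over the 2674 members whose middle lay in the non-senescent enhancer, 32.4% were in the middle segment, and 12% and 11.6% in the first and last. The senescent list gave 32.3%, 11.9% and 12.2%. Of 861 members with a mean count under 20, 35.1% were in the middle segment (32.0 to 38.3%) and 19.5% in the first and last together (17.0 to 22.3%). Of 439 with a mean count of at least 200, 20.5% were in the middle segment (17.0 to 24.5%) and 37.8% in the outer segments (33.4 to 42.4%), and their median distance to the nearest edge was 714 bp beside 1145 bp. In enhancers over 5 kb the outer segments held 54.0% of 100 such strong members and 24.8% of 266 weak ones. Strong peaks are wider and cross edges more often. When only peaks whole inside enhancers over 5 kb were kept, the outer shares were 34.3% of 70 strong members (24.2 to 46.0%) and 23.1% of 260 weak ones (18.4 to 28.6%), intervals that overlap.

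**Figure D3:**
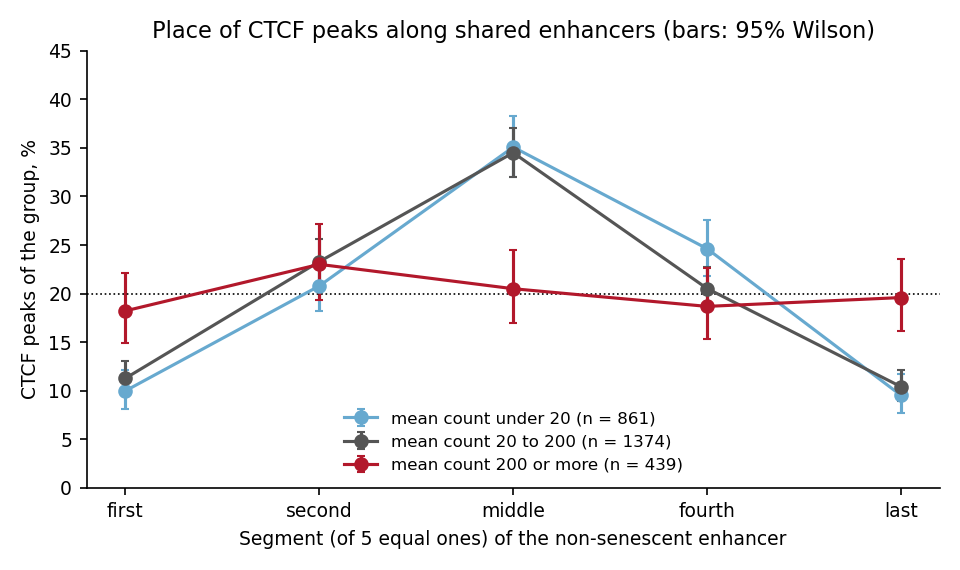
Share of CTCF peaks, in %, whose middle lies in each of 5 equal segments of the non-senescent enhancer, for members with mean counts under 20 (blue), from 20 to 200 (grey) and of 200 or more (red); bars, 95% Wilson intervals over peaks; dotted line, the even share of 20%. Blue and grey peak in the middle segment at 35.1% and 34.5%, while red stays between 18.2% and 23.0% in every segment.

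The enhancers around the members were slightly longer in senescent cells. The median length was 3610 bp in the senescent and 3368 bp in the non-senescent list, and the median of the paired difference, senescent minus non-senescent, was 182 bp (149 to 212, 95% interval from order statistics, which covers the spread between peaks only). The senescent enhancer was longer around 1729 members (60.3%) and the non-senescent one around 1136 (39.6%). A rise of over 1 kb was seen around 593 members and a fall of over 1 kb around 240. Both edges lay farther out in senescent cells around 1116 members (38.9%) and in non-senescent cells around 655 (22.9%). No member had the same edges in both lists (0 of 2866). With 1 list per state and no value per library, how far edges move between replicates is unknown.

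Shared enhancers without a CTCF peak were also slightly longer in senescent cells. Over the 2550 shared enhancers that held a member, the median difference was 168 bp and the senescent one was longer in 59.7% (57.8 to 61.6%). Over the 7701 shared enhancers without any CTCF peak, it was 154 bp and 58.1% (57.0 to 59.2%). Shared enhancers were also ranked by non-senescent length into 4 equal groups. In the shortest group the median difference was 190 bp with a member and 370 bp without a CTCF peak. In the other groups it was larger with a member, 138 against 66 bp, 185 against 18 bp and, in the longest, 167 against 66 bp. A member must by rule overlap the senescent list as well, which favours longer senescent enhancers among those with a member. The groups were set on non-senescent length alone. The part of either in these differences was not tested.

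**Figure D4:**
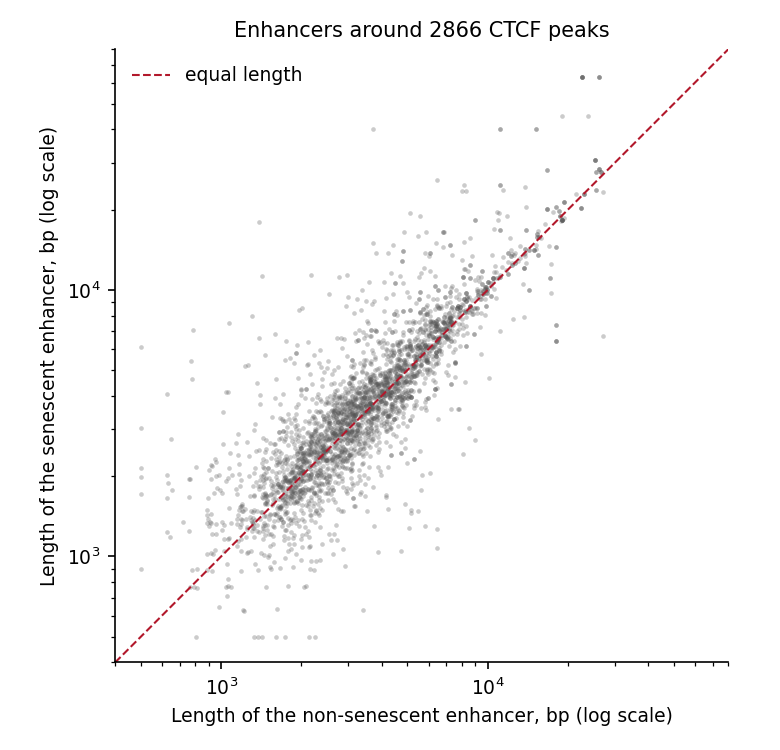
Length in bp of the senescent enhancer (vertical, log scale) against that of the non-senescent enhancer (horizontal, log scale) around each of the 2866 members; each point is 1 CTCF peak, and the dashed line marks equal lengths. Points follow the line, with 60.3% above it and a few far off it.

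The largest length differences came where 1 listed enhancer faced several in the other state. The 3 members with the largest rise, with mean counts of 193, 17.4 and 6.81, were in the gene RAP1GAP2 (chr17:2929462-2935304 from the first of the 3 to the last), in a senescent enhancer of 63185 bp and a non-senescent one of 22609 bp. The senescent region spanned 3 non-senescent enhancers that summed to 58695 bp. At AHDC1 (chr1:27556175-27557706, mean count 290) the length fell by 20296 bp, the most of all members, where 1 non-senescent enhancer of 26984 bp faced 2 senescent ones that summed to 29964 bp. Around 2 weak members (12.3 and 11.8) near TBC1D22A it fell by 11669 bp, where 18120 bp of non-senescent enhancer faced 2 senescent ones with 13857 bp in all. For 2663 members (92.9%) each enhancer met only the other, and there the median difference was 147 bp.

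Most shared enhancers held no member. Of 10515 non-senescent enhancers that overlapped a senescent one, 2550 held one (24.3%, 23.4 to 25.1%), and 1187 (11.3%) held one with a mean count of at least 50. The share rose from 18.4% in the shortest of the 4 length groups (up to 1916 bp) to 35.5% in the longest (3909 bp and above), while the number of members per 10 kb of enhancer fell from 1.29 to 0.736. Because 1 bp of overlap is enough, peaks that reach past an edge are counted too, which raises the number per 10 kb most in short enhancers. The part of this in the fall was not tested. Enhancers with a member had a median mean H3K27ac count per kb of 140, and those without any CTCF peak 111. Within each length group the former was higher as well, from 94.8 against 84.5 in the shortest to 188 against 167 in the longest.

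Most of these enhancers held a single member. The number was 1 in 2276, 2 in 240 and 3 or more in 34. The one with the most, 6, lay within GSE1 (chr16:85435203-85454204), a gene for a chromatin co-repressor subunit, and was 19002 bp long in the non-senescent and 18286 bp in the senescent list. Its members had mean counts from 7.30 to 59.7, and 2 of them matched the CTCF matrix. The 2 enhancers with 5 members were those at RAP1GAP2 (5.91 to 193) and near TBC1D22A (11.2 to 42.5).

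Acetylation over the members covered a wide range. The H3K27ac peak that each overlapped had a median mean count of 637 (quartiles 319 and 1331, range 61.3 to 14597), and per kb the median was 146. For CTCF peaks in senescent-only and non-senescent-only enhancers the medians were 196 and 171. By the study's methods, listed enhancers carried both H3K27ac and H3K4me1 signals and lay outside promoters. The lists were drawn in each state and the count averages both states, so the rule itself favours higher values in the members and the order is no finding. Longer enhancers had higher counts (rho 0.85 with non-senescent length, n = 2866), as a count summed over a longer region must.

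Exact cores pointed slightly more often towards the middle of their enhancer than away from it. The core was taken to point from its CC end to its GGC end. Of 462 exact cores inside the non-senescent enhancer, 262 pointed to its middle (56.7%, 52.2 to 61.2%), and 57.6% of 458 did so in the senescent enhancer. With at most 1 mismatch the share was 51.7% of 4522. Direction bore no such relation to genes, since 222 of 441 members with exact cores on 1 strand pointed towards the nearest protein-coding start site (50.3%, 45.7 to 55.0%). Only 7 pairs of neighbouring members in 1 enhancer had exact cores on both sides, of which 3 faced each other, 1 faced away and 3 pointed the same way.

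More than any other place, members lay in introns. By the middle of the peak, 1520 were in introns of protein-coding genes (53%), 1188 between genes (41.5%) and 158 in exons (5.51%), beside 41.9%, 54.0% and 4.08% of peaks outside H3K27ac peaks. The intron share was much the same in senescent-only enhancers, 53.75%. It was lower in non-senescent-only enhancers, 46.89%, and in H3K27ac peaks outside the lists, 45.87%. The median distance to a protein-coding start site was 32756 bp. Between 2 and 10 kb lay 559 members (19.5%), and 684 (23.9%) lay beyond 100 kb. For 1354 (47.2%) the nearest start site was that of the gene they lay in, and for 324 of the 1678 members inside genes it belonged to another gene. In all, 1937 of 19676 protein-coding genes (9.84%) had a member nearest to a start site. The nearest gene is a position, and no value here ties a peak to a gene's activity.

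Genes of insulin secretion and glucose sensing held many of the listed members. Of 34 genes, 16 had one, 32 members in 27 enhancers, and of the 160 distal CTCF peaks nearest to these genes 32 were members, beside 7.09% of all 40396 distal CTCF peaks. In order of role, the glucose transporter gene SLC2A1 had a member at 240 (chr1:42922489-42924086). The voltage-gated calcium channels that trigger insulin release had intronic members at 146 for CACNA1A (chr19:13609672-13610583), 73.9 for CACNA1C and 47.5 for CACNA1D. Synaptotagmins, the calcium sensors of granule fusion, had members at 298 near SYT7 (chr11:61626788-61629008) and 89.0 in an intron of SYT13. SLC30A8, the zinc transporter of insulin granules, had an intronic member at 296 in 10312 bp of senescent and 10255 bp of non-senescent enhancer. PTPRN2, a granule membrane protein, had 7 members, the highest at 184 (chr7:158394550-158395977).

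Granule cargo and processing genes had members with mean counts from 31.0 to 119. CPE, a carboxypeptidase that trims proinsulin, had one at 92.2, the prohormone convertase PCSK2 one at 31.0, and its chaperone SCG5 one at 119. CHGA, which codes for chromogranin A, had one at 113 and the disulfide-forming ERO1B one at 41.1. The mean H3K27ac count of the peaks over these 5 ran from 182 at CHGA to 5037 at PCSK2. Around 19 of the 27 enhancers of the list the senescent one was longer, beside 59.7% over the 2549 distinct enhancers of all members. Among the highest members of the named genes, the largest rise in bp was at CACNA1A, from 11398 to 23654 bp, followed by PTPRN2, from 5786 to 12033 bp, and SCG5, from 2346 to 5973 bp. ABCC8, a gene of this list that the naming rule left out, had a larger rise at its highest member, from 23764 to 44989 bp. At CACNA1A the senescent region spanned 3 non-senescent enhancers that summed to 17375 bp. The enhancer at CACNA1C was 3889 bp in senescent and 5882 bp in non-senescent cells, within joined enhancers that summed to 16288 and 16127 bp. The list was short, and its counts were not tested.

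Beta-cell transcription factors had members in enhancers of very different length. Of 25 listed genes 9 had one, 18 members (of 143 distal CTCF peaks, 12.6%) in 13 enhancers, of which 7 were longer in senescent cells. FOXA2, a pioneer factor of endoderm, had the highest, 394 (chr20:22452676-22454213), 130359 bp from its start site. It touched a non-senescent enhancer of 950 bp and a senescent one of 2323 bp that do not overlap each other, the only such case among the 2866. NKX2-2, which holds beta-cell identity, had one at 324 (chr20:21528848-21530990) in enhancers of 12778 bp (senescent) and 11897 bp (non-senescent) with a mean H3K27ac count of 13803. ONECUT2 had one at 176 with an exact core. ST18 had one at 291, 135079 bp from its nearest start site, in 2553 bp of senescent and 1887 bp of non-senescent enhancer. NKX6-1 had one at 127, 336387 bp from its start site, in 2211 bp of senescent and 2689 bp of non-senescent enhancer. The NKX6-1 member matched the learned matrix but held no core with at most 1 mismatch. The member near INSM1, at 54.7, lay in an intron of RALGAPA2 in enhancers of 13636 bp (senescent) and 13749 bp (non-senescent). FOXA2, NKX2-2 and INSM1 are all on chromosome 20, where CTCF counts were high.

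**Figure D5:**
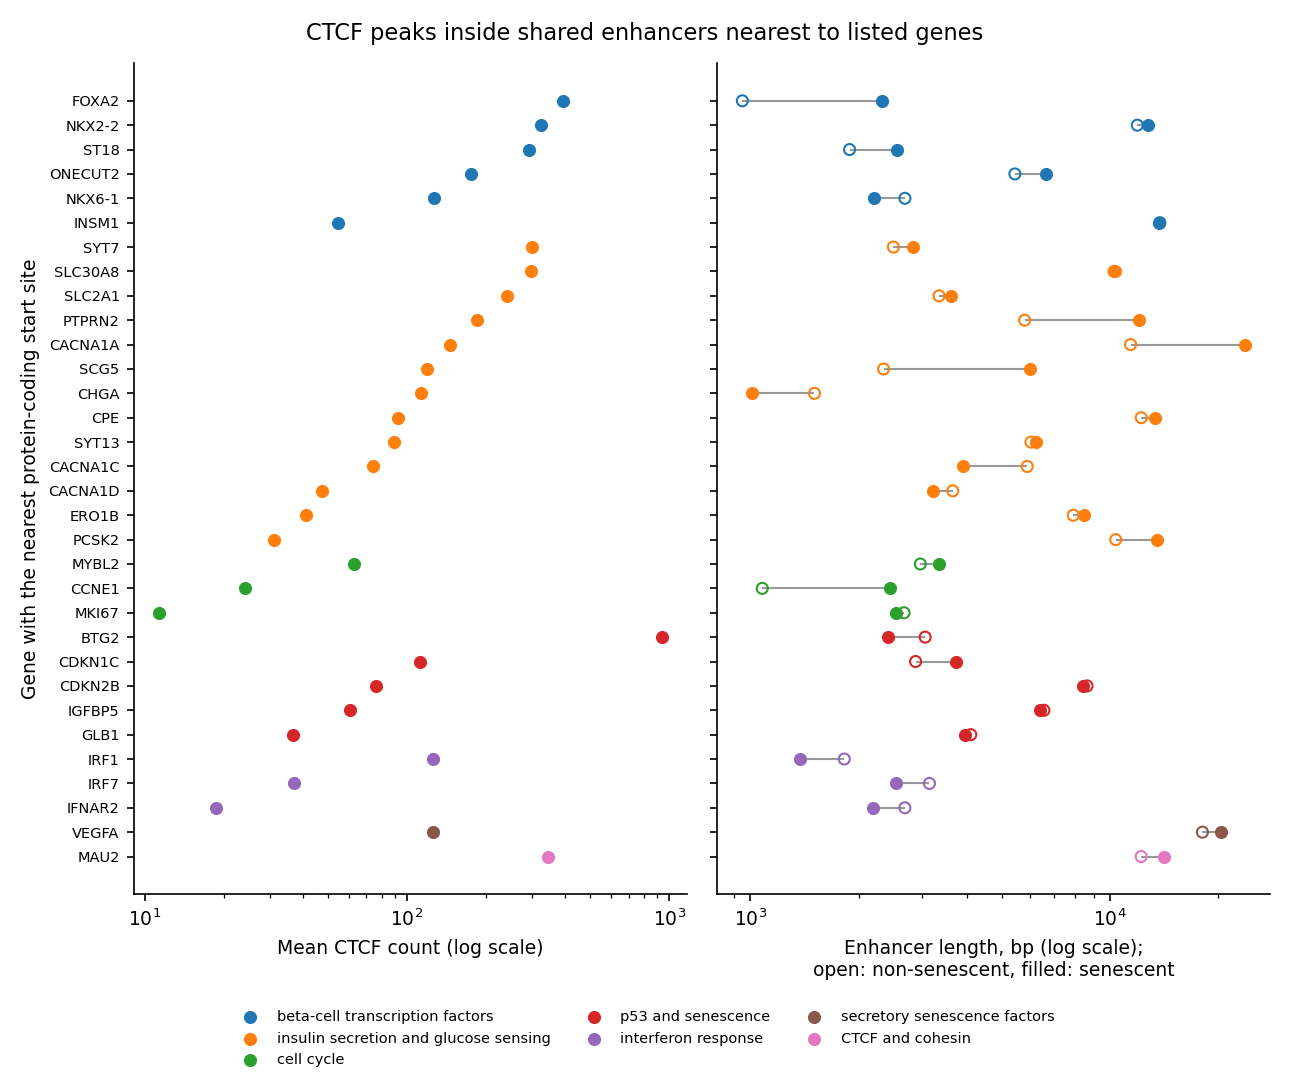
Mean CTCF count (left, log scale) of the member with the highest count for each named gene, and the length in bp (right, log scale) of its enhancer in non-senescent (open) and senescent (filled) cells; colours mark the 7 gene lists, and each point is 1 peak or region with no replicate error. Of the genes plotted, BTG2 has the highest count, 934, and CACNA1A the largest rise in bp, to 23654 bp.

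The senescence list had members at 5 of its genes and the cell-cycle list at 3. Of 21 genes of p53 signalling and senescence 5 had one, 7 members (of 40 distal CTCF peaks nearest to these genes, 17.5%) in 7 enhancers, and the senescent enhancer was the longer one in 2 of them. Apart from BTG2, the highest were 112 near CDKN1C, a cell-cycle inhibitor, within an intron of KCNQ1 (chr11:2836456-2837712), and 75.8 near CDKN2B, the neighbouring inhibitor gene of CDKN2A (chr9:22119412-22120232). The enhancers around the CDKN2B member, 110107 bp from the start site, measured 8431 bp in senescent and 8627 bp in non-senescent cells. IGFBP5, a secreted binder of insulin-like growth factors, had one at 60.6, and GLB1, whose product is the lysosomal beta-galactosidase used as a senescence stain, one at 36.8. Of 32 cell-cycle genes 3 had one, 3 of 42 distal CTCF peaks (7.14%), at MYBL2 (62.5), CCNE1 (24.1) and MKI67 (11.4). Enhancers at CCNE1 measured 2446 bp in senescent and 1079 bp in non-senescent cells.

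Interferon genes had 3 members, of 28 distal CTCF peaks nearest to them (10.7%). The senescent enhancer was the shorter one around each, as it was around 39.6% of all members, and 3 peaks are too few to describe the list. Of the 27 genes of that list found in the annotation, IRF1, a transcription factor of the interferon response, had one at 126 (chr5:132500548-132501980) in 1376 bp of senescent and 1824 bp of non-senescent enhancer. IRF7 had one at 37.1 within PHRF1 (2534 and 3146 bp), and the receptor subunit gene IFNAR2 one at 18.7 (2186 and 2688 bp). All 3 matched the CTCF matrix. Of 12 secretory senescence factors 1, VEGFA, had members, 3 of the 16 distal CTCF peaks nearest to the list (18.8%). This compares with 7.09% of all distal CTCF peaks, and 3 peaks are again few. The highest, at 125, lay in an enhancer of 20382 bp in senescent and 18051 bp in non-senescent cells. Of 16 genes of CTCF and cohesin only MAU2, the cohesin loader subunit, had one, at 346 (chr19:19341899-19343524), 1 of 34 distal CTCF peaks (2.94%).

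The 2-kb limit cut through a continuous range. The members nearest to it lay 2001, 2067 and 2074 bp from the start sites of CTNND1, TNS3 and SEC14L1 and had mean counts of 9.83, 36.6 and 49.8. Just within the limit, at 1987, 1938 and 1912 bp, were peaks at NBEAL2, CRACDL and CLU with mean counts of 8.88, 18.6 and 347. In all, 233 of the 3099 CTCF peaks that overlapped both lists lay within 2 kb. The study's methods had already left active promoters, judged by signals within 2 kb of start sites, out of the enhancer lists.

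Rb regions met few of the members. Of the 2435 regions listed as bound by Rb more in senescent than in non-senescent cells, overlaps were found for 13 members (0.454%), beside 0.286% of all CTCF peaks and 0.768% of those within 2 kb of a start site. The 13 had mean counts from 10.1 near SHROOM3 to 421 near C2orf42, and 6 of them matched the CTCF matrix.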

How the data were processed

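ChIP-seq had been done for CTCF, H3K27ac, H3K4me1 and Rb, and GEO's labels gave each library its antibody and state. Per the study's methods, reads were quality-trimmed (Trim Galore) and aligned to hg38 (Bowtie2). The authors used HOMER for histone peaks and MACS2 for CTCF peaks, both with input as control, and MACS2 with the non-senescent libraries as control for Rb. Tool versions and the way replicates were joined are not given in the sources used here. The deposited signal in the CTCF and H3K27ac tables is the authors' mean normalised count of each peak (DESeq2's baseMean, averaged over the libraries of both states), here the mean count. The tables also hold the authors' own comparison of the states (log2 fold change, its standard error, test statistic and p-values), which was not used. The 3 region lists hold positions alone. Library depth is not in these files, so the precision of a mean count is unknown. The study's methods filter CTCF peaks by motif, and whether this table was written before or after that step is not given.

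Distances to start sites, exons and introns were taken from GENCODE 44 and bases from hg38, with Python 3.11.15, pandas 2.3.3 and scipy 1.17.1. No region lay beyond the end of its chromosome. Positions are printed with starts counted from 1. Where a peak met several enhancers of a list, the one with the largest overlap was used. The matrix was counted in the best sites of the 5000 highest CTCF peaks over 28 positions and was chosen after the data had been seen. The scan, the overlaps and the intervals were checked on simulated data. Members and gene lists were chosen with earlier results of these data known. Named peaks were the 10 with the highest mean count, the 3 enhancers with the most members, the 3 largest length differences each way, the 3 nearest to 2 kb on each side and, for listed genes, the highest member of up to 30 genes and at least 3 per list. The Rb peaks, the FOXA2 enhancers that do not overlap and chromosome 20 were named after their values were seen. Of the listed genes, only DDX58 was not found in the annotation. Some named items are not reported here.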

Additional observations from a re-analysis of the deposited data

How the results depend on the processing

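No paired analysis was possible because the tables hold no values per library, and for the same reason no replicate could be left out. Of 64 alternative values for 10 results, 38 stayed within the 95% interval of the main value (for the number of members, within 1.5 times) and 26 did not. No direction turned. With at least 50% of the peak, or its middle, inside both lists, the median mean CTCF count was 34.7 and 34.8 and the share whole inside in both states 78.0% and 77.6%, and under the first of these the median H3K27ac count was 667. Away from start sites of every gene type, median GC content was 48.8% and the core share 67.2%. With a mean count of at least 50, 1240 members were left, with a median mean count of 162, a median H3K27ac count of 572, a core in 84.9%, 49.9% whole inside, 49.8% in introns, and a member in 11.3% of shared enhancers. With the highest peak of each enhancer, the median count was 43.5 and 68.2% were whole inside. The core share was 16.3% for exact cores, 44.8% in the central 200 bp, 33.7% with a matrix of exact cores and 40.6% with the learned matrix. GC content was 51.5% in the central 200 bp. Per kb the median count was 57.0, and among peaks from 600 to 1200 bp 53.5. With at most 1 mismatch 51.7% of cores pointed to the middle. With CTCF peaks near start sites added, 26.8% of shared enhancers held one. Around enhancers that met only each other the median length difference was 147 bp. The learned matrix, the width range, the joined enhancers and the chromosome regions left out were chosen after seeing the data. A mean count over both states, with no library values, limits every statement to levels.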

Other observations

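Members near several genes of beta-cell function fell outside the rule for named peaks and were looked up after their values had been seen. ABCC8, the sulfonylurea receptor subunit of the potassium channel that couples glucose to insulin release, had 2 weak intronic members with mean counts of 26.5 and 22.2, neither of which matched the CTCF matrix. Both lay in 1 senescent enhancer of 44989 bp, which faced separate non-senescent enhancers of 23764 and 19058 bp at these peaks. SLC2A2, the glucose transporter of rodent beta cells, had 2 members at 23.6 and 5.51 in enhancers of 6891 bp (senescent) and 6118 bp (non-senescent). GIPR, the incretin receptor gene, had one at 9.99 and RFX6, a factor of endocrine fate, one at 20.7, the latter with a matrix match in enhancers of 3620 bp (senescent) and 5638 bp (non-senescent).

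Of the other short motifs, the MAF half-site TGCTGAC was in 6.91% of members beside 4.93% of all CTCF peaks and 6.18% of shared-enhancer middles without CTCF. The RFX half-site GTTGCCA was in 4.99%, 3.84% and 5.40%. The HNF1 half-site GTTAAT was in 10.2%, 9.88% and 15.4%, the ETS motif CCGGAAG in 2.16%, 2.60% and 1.34%, the nuclear receptor half-site AGGTCA in 17.3%, 15.9% and 19.1%, and the NFI half-site TTGGCA in 15.4%, 14.5% and 16.2%. The middle of 482 members (16.8%, 15.5 to 18.2%) lay in a long non-coding RNA gene. None of these values were tested.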
